A study of Mus musculus with 4 samples.

Results

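The immunity-related GTPases (IRG proteins) and the guanylate-binding proteins (GBPs) are families of GTP-hydrolysing enzymes that interferon-gamma induces in leukocytes and in many tissue cells. Interferon-gamma binds its receptor, Janus kinases carry the signal inward, and transcription factors such as the interferon regulatory factor IRF1 switch on IRG and GBP genes. The IRG and GBP proteins then gather on the vacuoles of intracellular parasites and bacteria, and the IRGM proteins keep the other IRG proteins off the cell's own membranes. The 10 genes described here are 4 IRG genes (Igtp, Iigp1, Irgm1 and Irgm2) and 6 GBP genes (Gbp2, Gbp3, Gbp4, Gbp6, Gbp7 and Gbp9). They were taken by symbol from the 38355 genes of a raw count table, and all 10 were found there, 1 row each. They were chosen by their measured counts, because Igtp, Iigp1, Irgm2 and Gbp3 were high in 2 libraries and low in the other two, so that split is described below and is not tested.

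The study sequenced RNA of the free wall of the left ventricle in 4 mice of the same parents, given no treatment per the labels, to ask whether the transgene VSFP2.3 harms the heart. VSFP2.3 is a fluorescent voltage indicator, and the series title describes it as targeted to cardiomyocytes. For the promoter and the strain background, nothing was given in the sources used here. WT1 was a 35-week wild-type male, TG1 a 35-week transgenic male, WT2 a 19-week wild-type female and TG2 a 19-week transgenic female. The WT1 and TG1 mice form the male pair below, and WT2 and TG2 the female pair. Each mouse gave 1 library, and sex and age cannot be told apart.

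The libraries held 14158440 to 16762713 counted reads. Levels below are counts-per-million values (CPM) over library sizes scaled by trimmed means, and levels compared between genes are CPM per kilobase of exon. The Y-linked gene Ddx3y was counted 3289 and 2699 times in the male libraries and 0 times in both female ones, as labelled. Reads of the transgene were not analysed here, which leaves the genotype labels unchecked. The cardiomyocyte myosin gene Myh6 took 1.95 to 3.04% of counts in each library of this heart tissue. WT2 stood apart in that the non-coding gene Yam1 took 4.09% of its counts, against 0.0141 to 0.0476% in the other libraries.

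The genes lie on 4 chromosomes (mm10 assembly, positions from GENCODE vM21). Igtp (ENSMUSG00000078853, chromosome 11, 58199556 to 58207591) and Irgm2 (ENSMUSG00000069874, 58199618 to 58222782) overlap on the same strand, and Irgm1 (ENSMUSG00000046879, 48861968 to 48871683) lies elsewhere on that chromosome. Iigp1 (ENSMUSG00000054072) lies on none of the chromosomes named here. Gbp7 (ENSMUSG00000040253, 142530342 to 142550149), Gbp3 (ENSMUSG00000028268, 142560026 to 142573209) and Gbp2 (ENSMUSG00000028270, 142620602 to 142638008) lie in 1 cluster on chromosome 3. Gbp9 (ENSMUSG00000029298, 105077630 to 105139539) and Gbp4 (ENSMUSG00000079363, 105115767 to 105139586) overlap on chromosome 5. The row named Gbp6 has the identifier ENSMUSG00000079362, which GENCODE vM21 gives to a locus named Gm43302 (chromosome 5, 105214907 to 105293695). That locus shares 40.05% of its exonic length with the Gbp6 gene model and 41.6% with Gbp10, so the Gbp6 value is uncertain and may hold reads of Gbp10.

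The bases just upstream of the start sites are shown for 2 IRG and 2 GBP genes because members of both families carry the same short motifs close to the start. They come from RefSeq on GRCm38.p6, read 5′ to 3′ on the gene's strand and ending at the base before the RefSeq start. Capitals mark matches to a pair of GAAA blocks with 2 bases of any kind between them, the core of the element bound by interferon regulatory factors, and to TTCNNNGAA, the form of the gamma-activated site, on either strand.
Igtp, chr11:58199436-58199555, plus strand: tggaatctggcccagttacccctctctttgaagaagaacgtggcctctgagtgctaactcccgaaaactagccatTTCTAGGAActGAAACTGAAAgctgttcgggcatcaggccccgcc
Irgm2, chr11:58214857-58214976, plus strand: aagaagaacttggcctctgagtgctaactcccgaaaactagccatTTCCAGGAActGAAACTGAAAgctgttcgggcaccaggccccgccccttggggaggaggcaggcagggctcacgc
Gbp3, chr3:142559924-142560043, plus strand: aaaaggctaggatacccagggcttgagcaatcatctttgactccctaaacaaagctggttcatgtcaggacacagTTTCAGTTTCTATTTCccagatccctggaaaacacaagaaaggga
Gbp7, chr3:142530216-142530335, plus strand: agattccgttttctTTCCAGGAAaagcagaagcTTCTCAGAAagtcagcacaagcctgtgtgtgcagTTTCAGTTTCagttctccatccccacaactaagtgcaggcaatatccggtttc

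RefSeq windows were examined for 6 of the 10 genes (Igtp, Irgm1, Irgm2, Gbp2, Gbp3 and Gbp7). In the 250 bases upstream of the start, all 6 held the spaced GAAA pair, where 2.98% of 32851 such windows of all genes did. Igtp, Irgm2 and Gbp7 also held TTCNNNGAA, which 7.02% of all windows held. Both motifs together were found in 0.332% of windows. In Igtp and Irgm2 the pair sat side by side, with GAAACTGAAA starting 34 and 64 bases before the start and the TTCNNNGAA match just upstream of it. Irgm1 had overlapping matches starting 30 and 24 bases before the start, and Gbp2 had one starting 59 bases before it. Of the 120 bases nearest the RefSeq start, 120 for Irgm1, 61 for Gbp2 and 18 for Gbp3 lay in GENCODE vM21 exons. The Irgm1 and Gbp2 matches were thus upstream of the RefSeq start but inside exons of that annotation. For Gbp3, the RefSeq start further downstream had neither motif. The share of all windows is given as a description, and a match is a run of letters, not a measured binding site.

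The 4 IRG genes were abundant in WT1 and TG2 and scarce in WT2 and TG1. Igtp, also called Irgm3, which regulates the effector IRG proteins, was at 678 CPM in WT1, 12.1 in WT2, 12.7 in TG1 and 286 in TG2. Among the males the WT heart had 53.6 times the level of the TG heart, and among the females the TG heart had 23.7 times the level of the WT heart. Iigp1, an effector that helps to break up parasite vacuoles, was at 794 CPM in WT1, 17.7 in WT2, 21.5 in TG1 and 280 in TG2. The libraries fell in the same high and low groups, 37.0-fold apart in the male pair and 15.9-fold apart in the female pair.

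Irgm1, which localises to lysosomes and other organelle membranes and takes part in autophagy and mycobacterial defence, was at 443 CPM in WT1, 18.0 in WT2, 19.7 in TG1 and 161 in TG2. Irgm2, the third regulatory IRGM protein, was at 320 CPM in WT1, 15.0 in WT2, 15.3 in TG1 and 146 in TG2. Both genes were high in WT1 and TG2 and low in the others, and their 22.5-fold and 20.9-fold gaps in the male pair were smaller than those of Igtp and Iigp1. Igtp and Irgm2 share 162 bp of exon, 8.01% of Igtp and 4.39% of Irgm2, and reads there could have been given to neither or to the wrong gene.

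The 6 GBP genes had the same high and low libraries with smaller gaps. Gbp2, which helps to rupture vacuoles and bacteria, was at 138 CPM in WT1, 22.1 in WT2, 24.5 in TG1 and 87.3 in TG2. Gbp3 was at 75.4 CPM in WT1, 7.36 in WT2, 8.04 in TG1 and 44.8 in TG2. Gbp7, a GBP linked to host defence through autophagy proteins and the NADPH oxidase, was at 152 CPM in WT1, 32.2 in WT2, 37.1 in TG1 and 89.0 in TG2. Of these 3 genes of the chromosome 3 cluster, Gbp3 had the widest gap, 9.38-fold in the male pair, against 5.66-fold for Gbp2 and 4.10-fold for Gbp7.

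On chromosome 5, Gbp4 was at 95.5 CPM in WT1, 21.6 in WT2, 13.7 in TG1 and 53.8 in TG2. The row named Gbp6 was at 103 CPM in WT1, 8.44 in WT2, 6.69 in TG1 and 59.4 in TG2. Gbp9 was at 98.3 CPM in WT1, 21.4 in WT2, 26.0 in TG1 and 60.8 in TG2. Again WT1 was highest and TG2 next for each gene. For Gbp4 and the Gbp6 row, WT2 stood above TG1, while for the other 8 genes TG1 stood above WT2.

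**Figure D1:**
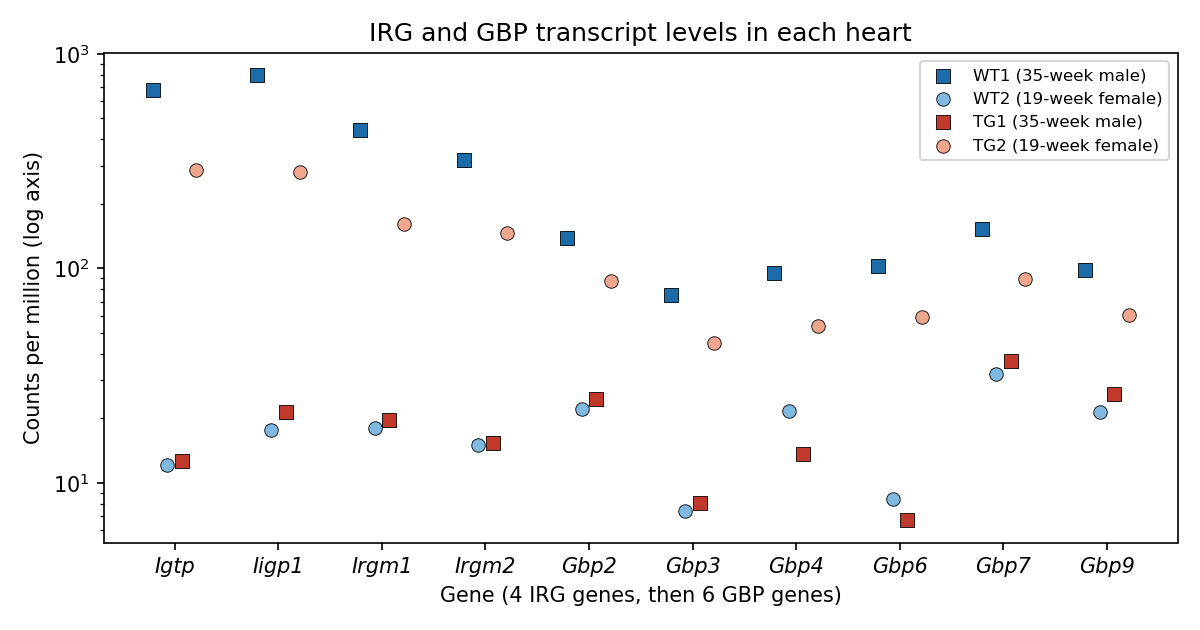
Transcript levels of the 10 genes in CPM on a log axis, 1 point per mouse, with squares for the 35-week males and circles for the 19-week females. For every gene WT1 is highest and TG2 second, and WT2 and TG1 lie low and close together, as for Igtp at 12.1 and 12.7.

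For all 10 genes, the lower of WT1 and TG2 was above the higher of WT2 and TG1. The same held for 24.6% of the 14189 genes tested, and since this pattern chose the genes, nothing is read from the count. TG was at least 2-fold lower than WT in the male pair and at least 2-fold higher in the female pair for all 10, against 3.81% of tested genes. The median log2 ratio of TG over WT was -3.56 for the males and 2.69 for the females, where the medians of all tested genes were -0.0049 and -0.0093. These ratios set 1 mouse against 1, so their intervals cover counting error only.

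**Figure D2:**
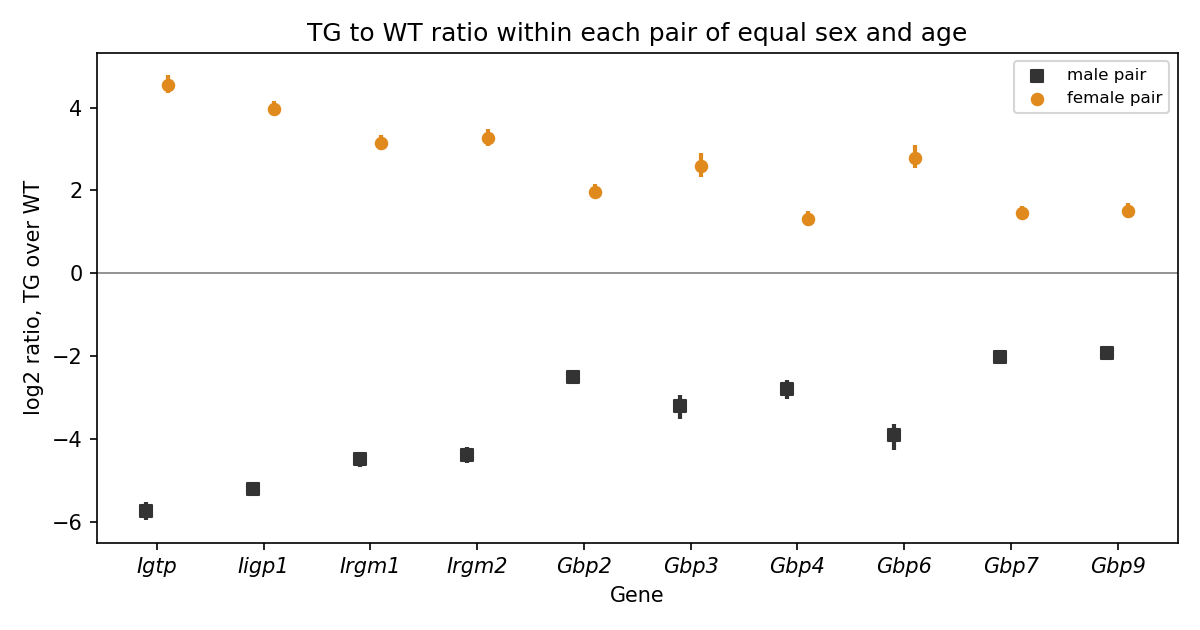
log2 ratio of TG over WT for each gene in the male pair (squares) and the female pair (circles), with vertical bars for the 95% counting interval. All male ratios lie below 0, from -5.73 for Igtp to -1.92 for Gbp9, and all female ratios above it, from 1.31 for Gbp4 to 4.55 for Igtp.

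Among the 10 genes, the IRG genes had wider gaps than the GBP genes. This did not hold over the whole families, since Gbp8 was at -5.25 and 4.32 (log2 ratio of TG over WT in males and females) and the IRG gene Gm5431 at -1.80 and 0.63. In the male pair, the log2 ratio of TG over WT was -5.73 for Igtp (95% exact counting interval -5.97 to -5.53) and -5.20 for Iigp1, with Irgm1 at -4.48 and Irgm2 at -4.38. Among the GBP genes it ran from -3.92 for the Gbp6 row (interval -4.26 to -3.64) to -1.92 for Gbp9 (interval -2.09 to -1.76). The female pair gave 4.55 for Igtp, 3.98 for Iigp1, 3.27 for Irgm2 and 3.15 for Irgm1, against 2.79 for Gbp6, 2.58 for Gbp3 and 1.31 to 1.97 for the other GBP genes. Each IRG gene thus lay further from 0 than each GBP gene in both pairs. The split of Igtp, Iigp1, Irgm2 and Gbp3 led to the choice of the 10, which favoured the IRG side, so this order is only a description. The 2 high libraries were not alike. WT1 had 2.19 to 2.84 times the TG2 level of the IRG genes and 1.58 to 1.77 times that of the GBP genes. The low libraries lay closer, with TG1 at 0.632 to 1.22 times WT2 over the 10 genes.

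Compared per kilobase of exon, the order of the genes was not the same in high and low libraries. In WT1, Igtp led at 336 CPM per kilobase, followed by Iigp1 at 136, Irgm2 at 86.8, Irgm1 at 76.2 and Gbp2 at 55.0. In WT2, Gbp2 led at 8.80 CPM per kilobase, ahead of Igtp at 5.98 and Gbp7 at 5.74, and Iigp1 stood at 3.03. The GBP genes other than Gbp2 ranged from 12.7 (Gbp4) to 27.1 (Gbp7) in WT1 and from 1.96 (Gbp6 row) to 5.74 in WT2, on the same scale. Among 14070 tested genes with a known length, Igtp ranked 98th from the top in WT1 and 239th in TG2, but 5462nd in WT2 and 5333rd in TG1. Together the 10 genes took 0.308% of all counts in WT1 and 0.135% in TG2, against 0.0164% in WT2 and 0.0175% in TG1. With 1 mouse per genotype and pair, the order of neighbouring levels has no replicate check.

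Between genotypes, no IRG or GBP gene passed the test. All 10 had lower fitted levels in TG, and their median log2 fold change was -0.77 against -0.011 for all tested genes. Iigp1 averaged 406 ± 549 CPM over the WT hearts against 151 ± 183 over the TG hearts (SD, n = 2), and its log2 fold change was -1.43 ± 1.83 (SE). Igtp averaged 345 ± 471 CPM over the WT hearts against 149 ± 193 over the TG hearts (SD, n = 2), and its log2 fold change was -1.21 ± 1.98. Gbp9, at the other end, averaged 59.8 ± 54.4 CPM over the WT hearts against 43.4 ± 24.6 over the TG hearts (SD, n = 2), and its log2 fold change was -0.46 ± 0.79. For each of these 3 genes the SD between the WT mice exceeded the difference between the genotype means.

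The adjusted p was 1.00 for each of the 10 in edgeR's quasi-likelihood test (Benjamini-Hochberg adjustment over all genes tested). Across all 14189 genes that test called 0% (99 genes had an unadjusted p below 0.05, none of them one of the 10), DESeq2 called 3 genes (0.0211%) and limma-voom 0. The sign rests on WT1. Without WT1 all 10 were higher in TG, with a median of 1.91 and none of them among the 8 genes called (0.055%), and without TG1 the median was -0.083, with 4 of 10 higher. Without TG2 and without WT2 the medians were -2.71 and -1.57. No direction is read from the comparison.

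The 35-week males against the 19-week females gave the mirror image. All 10 genes had higher fitted levels in males, with a median log2 fold change of 0.69 against 0.010 for all tested genes. Iigp1 was at 1.45 ± 1.86 (SE), Igtp at 1.21 ± 2.01 and Gbp4 at 0.54 ± 0.96. None of the 10 passed, with adjusted p-values of 0.999 by the same edgeR test, which called 0.0282% of all genes (4 genes). None of the 10 was among the 7 genes called without a filter on low counts (0.0324%), the 34 called by DESeq2 (0.24%) or the 9 called without TG2 (0.0616%). Without WT1 all 10 were lower in males, with a median of -1.94, and without WT2 the median was 0.057. Without TG1 and TG2 it was 1.56 and 2.60.

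**Figure D3:**
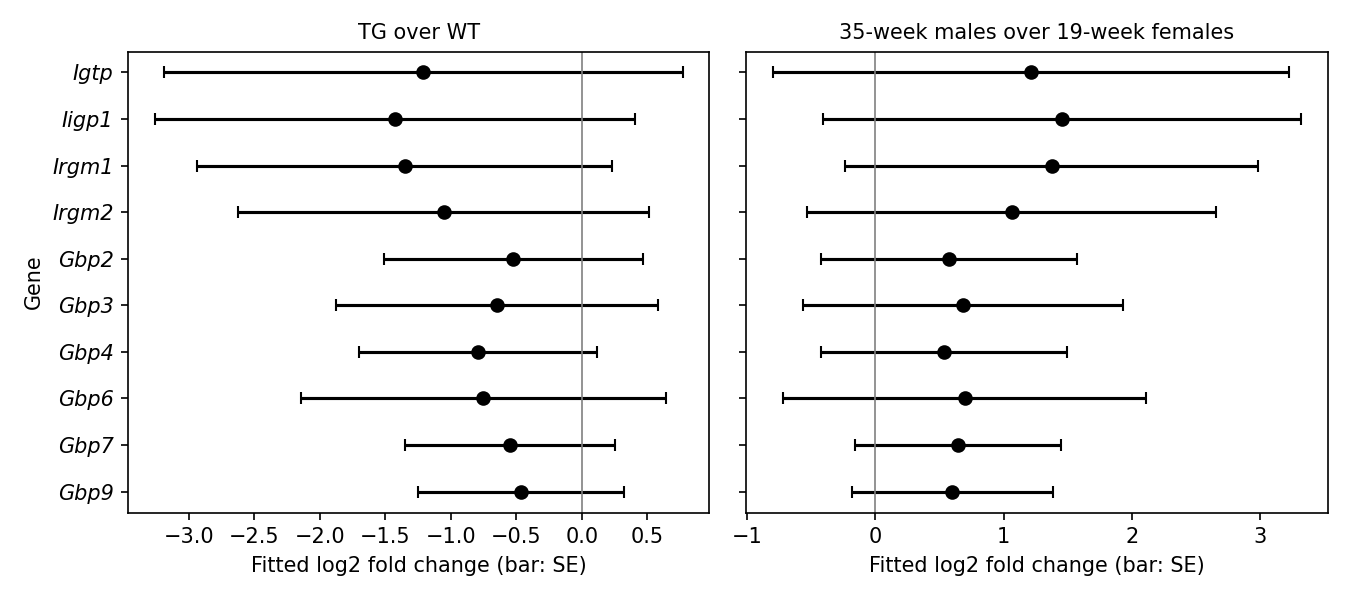
Fitted log2 fold changes of the 10 genes for TG over WT (left) and for 35-week males over 19-week females (right). Bars are the SE derived from the quasi-likelihood test on 4 mice. The points lie to one side of 0 in each panel, and every bar reaches across 0, as for Igtp at -1.21 ± 1.98.

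Of 20 further IRG and GBP genes listed, 17 were in the table and 15 passed the filter on low counts. None passed the test between genotypes or between males and females by edgeR. In TG, 9 of the 15 were at least 2-fold lower in the male pair and 2-fold higher in the female pair. The share of all tested genes was 3.81%. Of the 9, Gm4841, Gm12185, Gm4951, Gbp8 and Gbp11 passed the filter only through WT1 and TG2. The filter thus favoured this outcome, and nothing is read from the count. The most abundant of the 15 was the IRG gene F830016B08Rik, at 1117 CPM in WT1, 10.7 in WT2, 15.3 in TG1 and 576 in TG2. Gm4841, another IRG gene, was counted 6972 times in WT1, 3 in WT2, 1 in TG1 and 2061 in TG2. In the low libraries it was at or under the limit that a count of 0 allows (3 counts), so its log2 ratio of TG over WT is loosely bounded, at -11.0 (95% exact counting interval -17.8 to -10.1) for the males and 8.73 (7.93 to 11.8) for the females.

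Gm12250, the IRG gene also known as Irgb10, which acts with GBPs on bacteria, was at 209 CPM in WT1, 2.69 in WT2, 3.13 in TG1 and 84.3 in TG2. Gm12185 was counted 2189 and 899 times in WT1 and TG2 and 6 and 3 times in WT2 and TG1. Tgtp1 and Tgtp2, a near-identical pair of IRG genes, were at 21.9 and 12.1 CPM in WT1 and at 19.2 and 10.03 in TG2, against 2.303 and 0.448 in WT2 and 1.28 and 0.996 in TG1. Tgtp1 and Tgtp2 reads may have been split between the copies. Gm4951, Gbp8 and Gbp11 were also high in WT1 (10.5, 10.3 and 3.77 CPM) and at 5 counts or fewer in WT2 and TG1.

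The rest of the listed family genes moved less. Gbp5, which recruits inflammasome and vacuole-lysing factors, was at 22.2 CPM in WT1, 5.50 in WT2, 6.90 in TG1 and 9.96 in TG2, so that TG2 lay nearer to the low libraries. Gm5431 was at 3.04, 0.896, 0.782 and 1.46 CPM in the same order, and Gm4070 at 2.19, 1.02, 0.640 and 0.664. 9930111J21Rik1 and 9930111J21Rik2 were at 4.13 and 8.76 CPM in WT1, 2.37 and 4.86 in WT2, 3.06 and 5.05 in TG1 and 4.25 and 7.77 in TG2, so that TG2 was highest for the first of them. Irgq, a divergent IRG relative not known as an interferon target, was at 34.4 CPM in WT1, 41.9 in WT2, 48.5 in TG1 and 37.9 in TG2, and had lower levels in the libraries where the others were high. Neither motif was found in the 250 bases upstream of Irgq, Gm5431, 9930111J21Rik1 and 9930111J21Rik2. Tgtp1, Tgtp2, Gm12185, Gm12250 and Gbp5 held both. No window was examined for F830016B08Rik, Gm4841, Gm4951, Gm4070, Gbp8 and Gbp11. Whether the motifs go with the split was not tested.

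Interferon-gamma itself was barely counted. Ifng had 5 counts in WT1, 0 in WT2, 0 in TG1 and 5 in TG2, and a count of 0 allows up to 3 counts, or 0.179 CPM of the unscaled library in WT2 and 0.202 in TG1. The receptor chains were at like levels in all hearts, with Ifngr1 at 74.1 CPM in WT1, 69.3 in WT2, 55.9 in TG1 and 81.3 in TG2, and Ifngr2 between 213 and 231. The Janus kinase genes Jak1 (188 to 275 CPM) and Jak2 (56.5 to 83.2) also varied little beside the GTPases.

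The transcriptional regulators of the pathway named here were higher in WT1 and TG2 than in WT2 and TG1, with a gap in the male pair that for Ciita (log2 ratio of TG over WT -4.00) was wider than that of each of the 6 GBP genes. Irf1 was at 91.6 CPM in WT1, 26.9 in WT2, 24.4 in TG1 and 47.5 in TG2, and Irf8, a factor of myeloid cells, at 25.1, 8.32, 6.40 and 20.5 in that order. The feedback inhibitor Socs1 was at 2.25, 0.448, 0.356 and 2.06 CPM. The activators of class I and class II histocompatibility genes, Nlrc5 and Ciita, were at 37.6 and 19.0 CPM in WT1 and at 4.55 and 1.07 in TG1. None of the 10 tested signalling genes passed either edgeR test (Ifng was too low to test), and 8 of 10 had the high and low libraries of the GTPases, with 24.6% of all genes as background.

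Genes upstream of interferon-gamma production were near the limit of detection. Of 7 listed, 2 passed the filter, and none was called by edgeR. Eomes, a transcription factor of cytotoxic lymphocytes, had 32 and 27 counts in WT1 and TG2 and 0 in both WT2 and TG1. Il12rb1, an interleukin-12 receptor chain, had 14 and 13 counts in WT1 and TG2, 2 in WT2 and 0 in TG1. Both genes passed the filter only through the libraries where they were high, so nothing is read from their split. Targets of type I interferon, a related cytokine family, were high in the same libraries for 12 of 12 genes. The background was 24.6% of all tested genes. Over the 12 targets, the median log2 ratio of TG over WT was -2.23 for the males and 1.25 for the females. The 2 most abundant were Ifit2, at 92.0, 18.2, 23.9 and 33.9 CPM in WT1, WT2, TG1 and TG2, and Ddx58, a sensor of viral RNA, at 37.6, 20.2, 19.8 and 28.6.

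Partners through which the GTPases act were not alike. The list for ATG8 conjugation, which directs IRG and GBP proteins to vacuoles, also held partners outside conjugation itself, such as Sqstm1. Its 12 genes had median log2 ratios of -0.0077 for the males and -0.0013 for the females, and none was 2-fold apart in opposite directions. Among them Sqstm1 was at 551, 467, 552 and 389 CPM in WT1, WT2, TG1 and TG2, and Map1lc3a at 284, 164, 239 and 279. Of the 7 tested inflammasome genes, 6 were higher in WT1 and TG2 than in the other libraries, against 24.6% of all tested genes. The median log2 ratio of the 7 was -0.95 in the male and 0.65 in the female pair. Pycard, the inflammasome adaptor, was at 9.55, 4.48, 5.12 and 6.97 CPM and the pore-former Gsdmd at 9.42, 9.21, 6.40 and 8.97, in the order WT1, WT2, TG1, TG2. Il1b, Casp1 and Nlrp3, named after their values were seen, were at least 2-fold apart in opposite directions in the pairs, against 3.81% of all tested genes. The widest gap was that of Il1b, which encodes an inflammasome-processed cytokine, at 6.75, 0.384, 0.285 and 5.58 CPM.

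Other large GTPases of the dynamin superfamily, to which GBPs and atlastins belong, gave medians of 0.22 and -0.043 in the male and female pair over 12 genes. Only 1 of the 12 was at least 2-fold apart in opposite directions, against 3.81% of all tested genes. This was the interferon-induced antiviral gene Mx1, named after its values were seen. It was at 2.19 CPM in WT1, 0.256 in WT2, 0.213 in TG1 and 0.930 in TG2. Mitochondrial Opa1 was at 404 to 481 CPM in all 4 hearts and Mfn2 at 685 in WT1, 999 in WT2, 1126 in TG1 and 792 in TG2. None of the 12 type I target, 12 ATG8, 7 inflammasome and 12 dynamin-related genes was called by edgeR in either comparison.

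**Figure D4:**
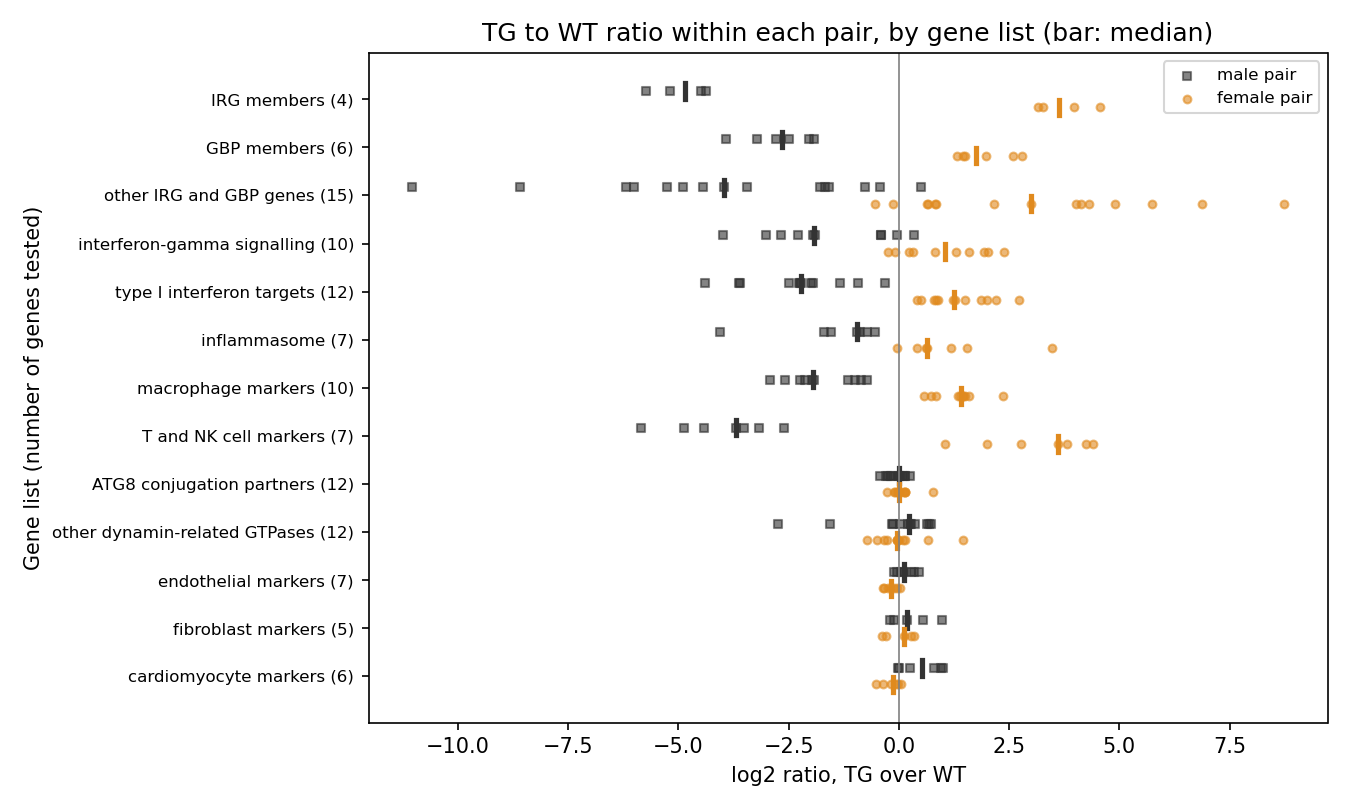
log2 ratio of TG over WT for each tested gene of 13 lists, in the male pair (squares) and female pair (circles), with a thick bar for the list median. The medians of IRG and GBP genes, interferon targets and leukocyte markers lie on opposite sides of 0 in the pairs, while those of ATG8 partners (-0.0077 and -0.0013), endothelial and fibroblast markers lie near 0 and cardiomyocyte markers are at 0.52 and -0.13.

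Leukocyte markers moved with the GTPases. In bulk tissue, fewer cells of a type and less RNA per cell cannot be told apart. All 10 tested macrophage markers were higher in WT1 and TG2 than in WT2 and TG1, against 24.6% of all tested genes. The summed level of these markers was 707 CPM in WT1, 238 in WT2, 244 in TG1 and 541 in TG2. C1qa, a complement gene of tissue macrophages, was at 132, 36.4, 33.6 and 94.6 CPM in that order, and Mrc1, a marker of resident macrophages, at 125, 68.1, 75.5 and 100. No macrophage marker was at 0 in any library.

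Markers of T and NK cells, the main producers of interferon-gamma, showed wider gaps at low levels. Their summed level was 35.0 CPM in WT1, 2.94 in WT2, 1.07 in TG1 and 30.1 in TG2. All 7 of the 12 that passed the filter were higher in WT1 and TG2, against 24.6% of all tested genes. Markers this low could pass through those libraries alone, as Cd3g and Cd4 did, so nothing is read from the count. Cd8a, Gzma, Ncr1 and Klrb1c were at 0 counts in TG1. Cd3g had 95, 6, 1 and 92 counts and Cd4 had 70, 4, 5 and 108 in WT1, WT2, TG1 and TG2. For Cd4, TG2 was above WT1, where each of the 10 GTPase genes was higher in WT1. Of the B cell markers only Cd79b passed the filter, with 17, 5, 5 and 33 counts, and it too passed only through WT1 and TG2. The part of the leukocyte markers in the result was not tested.

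The summed level of the 10 GTPase genes was 2898 CPM in WT1, 176 in WT2, 185 in TG1 and 1268 in TG2, a wider gap within each pair than that of the macrophage sum and a narrower one than that of the T and NK cell sum. Endothelial markers, whose cells can also respond to interferon-gamma, were at 1071, 1340, 1252 and 1143 CPM in sum, in the same order of libraries, and Kdr and Cdh5 ranged from 321 to 461 and from 192 to 250. Fibroblast markers were at 1028 to 1307 CPM in sum, with Dcn at 651 to 939 and Col1a2 at 132 to 194. Cardiomyocyte markers were lower in WT1 and TG2 in sum, at 38585 and 42207 CPM against 50518 in WT2 and 57538 in TG1. Of these, Myh6 was at 18365, 27275, 32115 and 21134 CPM in WT1, WT2, TG1 and TG2, and Myl2 at 7672 to 7948. No endothelial, fibroblast or cardiomyocyte marker was at least 2-fold apart in opposite directions in the pairs.

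The genes whose pattern over the 4 libraries was nearest to that of the GTPases were sought among 8375 named genes of at least 10 CPM on average. Likeness was the root mean square difference of centred log2 CPM from the median pattern of the 10. Nearest was Ifi47, which encodes the IRG protein Irgd, at 0.134 log2 units, with 35.1 CPM in WT1, 2.49 in WT2, 2.85 in TG1 and 20.6 in TG2. It was followed by the immunoproteasome subunit gene Psmb8 (0.234), the chemokine gene Cxcl9 (0.254), the leukocyte GTPase gene Rac2 (0.279) and the lysosomal protease gene Ctss (0.291). Among the 10 themselves the difference ran from 0.133 for Gbp3 to 1.03 for Igtp. The measure rests on 4 libraries.

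Other genes lying within 250 kb of the 10 were closer to equal in the pairs by their median. The 30 tested ones outside the listed IRG and GBP genes had a median log2 ratio of -0.051 for the males and 0.068 for the females, and 3 of them were at least 2-fold apart in opposite directions, where 3.81% of all tested genes were. The lower of WT1 and TG2 was above the higher of WT2 and TG1 for 13 of the 30, against 24.6% of all tested genes. The 3 that were at least 2-fold apart in opposite directions were Ifi47, Abcg3 and BC023105, singled out after their values were seen. BC023105 was at 150 CPM in WT1, 0.384 in WT2, 0.142 in TG1 and 57.2 in TG2. Pkn2, next to the chromosome 3 cluster and also singled out after its value was seen, was at 102 to 106 CPM in all 4 hearts.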

How the data were processed

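The authors deposited raw read counts per Ensembl gene for each mouse. Per the submitters' processing notes, the tools were STAR 2.3.0, HTSeq 0.6.1, CASAVA 1.8.2, FastQC 0.10.0 and DESeq, on build mm10. How HTSeq handled strand and overlaps, and with which annotation release, is not given in the sources used here. Per the labels' protocols, the kit was TruSeq Stranded Total RNA. A second, normalized table was not used.

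Counts were tested in R 4.3.3 with edgeR 4.0.16 (filterByExpr, minimum count 10, trimmed-mean scaling, quasi-likelihood test, Benjamini-Hochberg over all 14189 genes, threshold 0.05), for TG against WT and for 35-week males against 19-week females, each with n = 2 per group. The script was tested on simulated data. A gene near 0 counts in WT2 and TG1 could pass the filter only through WT1 and TG2, so tested genes this low had the split by selection. This applied to Socs1, Il1b, Mx1, Abcg3 and BC023105 as well as to the genes marked as such elsewhere. The SE of a fitted log2 fold change was its absolute value divided by the square root of the quasi-likelihood F statistic. CPM are over the scaled libraries, and log2 ratios within a pair add a prior count of 2. Their 95% intervals are exact binomial. Counting intervals and the limit of 3 counts for a 0 cover counting error only, and the labels name no molecular identifiers. DESeq2 1.42.0, limma-voom (limma 3.58.1), other scalings, no filter, a replicate block and leaving out each library were alternatives. Replicate numbers pair mice of equal sex and age per the labels, yet same-numbered libraries deviated in opposite directions (correlation -0.45 across 14189 genes).

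The 10 genes and all lists were chosen with earlier results of these data known. Named genes were the 10, the interferon-gamma signalling list, every other listed IRG or GBP gene that was tested, the 2 most abundant genes of each other list, and the 5 nearest patterns. The IRG gene Ifi47 was not in the family list and entered as a nearest pattern. The values of 2 of these genes are not reported here, though counts and medians over their lists include them. Shared sequence was measured as 50-base words of the GENCODE transcripts. Of those, 12.2% for the Gbp6 row, 11.8% for Igtp and 0.31 to 7.83% for the other 8 genes also occurred in another gene of the table. Against every gene of GENCODE vM21, in the table or not, 100% of the words were shared for the Gbp6 row and 12.7% for Gbp7. P-values set the difference between groups against the spread within groups, estimated from these 4 mice with information shared across the tested genes.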

Additional observations from a re-analysis of the deposited data

Results flagged for a closer look

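The TG to WT ratio pointed in opposite directions in the male and the female pair for each gene and list below, by at least 2-fold in each pair. The difference was not tested, since each pair holds 1 mouse per genotype and this pattern chose the 10 genes. Each value is the log2 ratio among the males minus the one among the females, and ratios of genes near 0 counts depend on the prior count. For the IRG genes it was -10.3 for Igtp, -9.18 for Iigp1, -7.64 for Irgm2 and -7.63 for Irgm1. For the GBP genes it was -6.71 for the Gbp6 row, -5.79 for Gbp3, -4.47 for Gbp2, -4.10 for Gbp4, -3.49 for Gbp7 and -3.42 for Gbp9. Over all 10 the difference of the medians was -6.25, over the IRG genes -8.46 and over the GBP genes -4.38.

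Of the other family genes, Gm4841 was at -19.8, Gm12185 at -15.5, F830016B08Rik at -11.9 and Gm12250 at -10.9. Gbp8 was at -9.57, Gm4951 at -8.46, Tgtp2 at -7.57, Gbp11 at -7.04 and Tgtp1 at -6.96, and the median difference of that list was -6.96. Of these family genes, Gm4841, Gm12185, Gbp8, Gm4951 and Gbp11 passed the filter on low counts only through WT1 and TG2. In the signalling list (-2.98), Ciita was at -6.37, Nlrc5 at -4.61, Socs1 at -4.21 and Irf8 at -3.24. Upstream of interferon-gamma (-6.36), Eomes was at -7.87 and Il12rb1 at -4.85, and the type I interferon targets were at -3.48. Eomes and Il12rb1 passed the filter on low counts only through WT1 and TG2, and the value of their list rests on them. Among leukocyte markers, the macrophage list was at -3.36, with C1qa at -3.35. The T and NK cell list was at -7.30, with Cd3g at -8.47 and Cd4 at -7.41, and the B cell gene Cd79b was at -3.63. Cd3g, Cd4 and Cd79b passed the filter on low counts only through WT1 and TG2, which favoured such values. The nearest patterns were at -6.54 for Ifi47, -5.89 for Cxcl9, -5.54 for Rac2, -5.46 for Psmb8 and -5.31 for Ctss.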

How the results depend on the processing

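No alternative called any of the 10 genes in either comparison. For TG against WT, edgeR called 0 genes in all, DESeq2 3 and edgeR with one library left out 0 to 8, the 8 being without WT1. Fitted with a replicate block for the pair, edgeR called 0 genes and 0 of the 10, whose median was -0.55, so the block changed no call. With the crossed pairing (WT1 with TG2), added after seeing the data, it called 0 genes and 0 of the 10. For males against females, 4 genes were called, against 7 without a filter, 34 by DESeq2, 0 with genotype as a term and 0 to 9 with one library left out (9 without TG2 and 0 without each of the others). The sign turned only when a library was left out. For TG over WT, the log2 fold changes over the libraries left out ran from -4.77 to 3.63 for Igtp, -4.24 to 3.09 for Iigp1, -3.55 to 2.33 for Irgm1, -3.45 to 2.42 for Irgm2, -1.71 to 1.34 for Gbp2, -2.36 to 1.85 for Gbp3, -2.10 to 0.64 for Gbp4, -3.06 to 1.97 for Gbp6, -1.31 to 0.97 for Gbp7 and -1.20 to 1.02 for Gbp9. For males over females they ran from -3.56 to 4.84 for Igtp, -2.79 to 4.53 for Iigp1, -2.18 to 3.69 for Irgm1, -2.39 to 3.48 for Irgm2, -1.16 to 1.88 for Gbp2, -1.69 to 2.51 for Gbp3, -1.46 to 1.34 for Gbp4, -2.34 to 2.70 for Gbp6, -0.71 to 1.56 for Gbp7 and -0.66 to 1.54 for Gbp9. The male-pair median stayed between -3.73 and -3.53 and the female-pair median between 2.66 and 2.88 over 2 other scalings and 2 other prior counts, and no gene changed sign. Without a library, a group of 1 mouse is assumed to vary like the other group.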
